A study of Mus musculus with 9 samples.

Results

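The innate immune receptors Toll-like receptor 1 to Toll-like receptor 9 (genes Tlr1 to Tlr9) and the co-receptor CD14 (gene Cd14) were measured in whole mouse lung. All probes other than control probes whose RefSeq transcript belongs to these 10 genes were taken, which gave 16 of the 56605 distinct probes on the array. All 10 genes were measured, and 14 of the 16 probes passed the filter on dim probes, which asks for a signal well above background in all 3 arrays of some group. In what follows each gene is represented by its brightest probe, taken as the highest mean of the 9 arrays, and the further probes are given beside it. All 10 genes were among the 16842 genes tested.

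Toll-like receptors are membrane proteins that bind microbial and damage-associated molecules through leucine-rich repeats and signal through a cytoplasmic TIR domain. TLR1, TLR2, TLR4, TLR5 and TLR6 sit mainly at the cell surface and bind bacterial lipoproteins, lipopolysaccharide or flagellin, whereas TLR3, TLR7, TLR8 and TLR9 sit in endosomes and bind nucleic acids. CD14 hands lipopolysaccharide to TLR4 and also serves other receptors of the family. In the lung, macrophages, monocytes, dendritic cells, B cells and epithelial cells carry different sets of these receptors.

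All 9 mice carried floxed alleles of the gene of TRF1 (Terf1), a telomere-binding protein of the shelterin complex, and tamoxifen was given to all, starting when they were 8 weeks old, at a weekly 250 mg/kg. Control mice were TRF1flox/flox without cre, 11 months old, with 9 months of tamoxifen behind them (n = 3). SPC-cre TRF1flox/flox mice were either 5 months old with 3 months of tamoxifen (3-month cre, n = 3) or 11 months old with 9 months of tamoxifen (9-month cre, n = 3). The SPC promoter is that of surfactant protein C, a product of alveolar type 2 cells, so cre is aimed at a cell type that is only part of the RNA measured. The 9-month cre and control groups share age and exposure, while the 3-month cre group is 6 months younger than the control group.

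Signal depth was similar between arrays. The 75th percentile of processed signal was between 958 and 1430 units, the local background had medians of 28 to 35, and 0 spots were saturated. Levels below are log2 processed signal relative to the 75th percentile of the same array, so a level of 0 is that percentile. Terf1 levels were -0.37, -0.05 and 0.20 in the control lungs, -0.58, -0.68 and -0.62 in the 3-month cre lungs and -0.41, -0.97 and -0.39 in the 9-month cre lungs, below the controls in every cre lung with no call (limma, adjusted p = 0.131 at 9 months and 0.19 at 3 months). The summed linear level of 11 lung epithelial markers lay between 1266 and 1373 in control, 1212 and 1558 in 3-month cre and 1268 and 1632 in 9-month cre lungs, and Sftpc had group mean levels of 8.09, 8.22 and 8.42. The arrays lay on 2 slides. Slide 1 held the 3 control arrays and replicate 1 of the 3-month cre group, and slide 2 held the other 5 arrays. Read from Xist and Y-linked probes, the 3 control mice, replicate 2 of the 3-month cre group and replicate 1 of the 9-month cre group were male and the other 4 mice female. Between 62.7% and 64.9% of probes were well above background on slide 1 and between 67.9% and 72.4% on slide 2. Slide and sex therefore overlap with the groups, and values with each of them in the fit stand beside the calls of the member genes. Replicate 1 of the 3-month cre group is the only cre lung on slide 1. Every slide-block difference from control therefore rests on that lung. In whole tissue, fewer cells of a type and less RNA per cell cannot be told apart.

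The sequences around the start sites are shown for the members that were higher in every 9-month cre lung than in every control lung and have a promoter in the RefSeq table used (Tlr2, Tlr6 and Tlr8), and for Tlr1, the gene next to Tlr6, which was lower in every such lung. Each sequence runs from 250 bases before to 50 bases after a RefSeq start site on GRCm38.p6, 300 bases in all. Capitals mark matches on either strand to the letters of 4 motifs of factors that act in myeloid and inflammatory transcription: the PU.1 core GAGGAA, AP-1 TGANTCA, IRF GAAANNGAA and the kappaB consensus. Of 32841 mouse promoters of this length, 28.3% hold the PU.1 core, 7.80% AP-1, 8.60% IRF and 4.50% the kappaB consensus.
Tlr2, chr3:83841559-83841858, minus strand: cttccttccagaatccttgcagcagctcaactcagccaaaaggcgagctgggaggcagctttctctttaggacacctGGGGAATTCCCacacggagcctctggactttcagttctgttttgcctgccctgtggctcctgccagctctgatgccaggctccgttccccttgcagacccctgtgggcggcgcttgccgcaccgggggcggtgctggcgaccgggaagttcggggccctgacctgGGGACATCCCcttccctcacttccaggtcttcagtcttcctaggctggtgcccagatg
Tlr6, start site A, chr5:64959117-64959416, minus strand: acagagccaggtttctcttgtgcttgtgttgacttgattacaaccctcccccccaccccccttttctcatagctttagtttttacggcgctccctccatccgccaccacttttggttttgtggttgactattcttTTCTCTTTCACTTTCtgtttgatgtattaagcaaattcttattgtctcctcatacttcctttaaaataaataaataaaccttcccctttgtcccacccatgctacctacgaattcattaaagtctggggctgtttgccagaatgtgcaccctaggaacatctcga
Tlr6, start site B, chr5:64959999-64960298, minus strand: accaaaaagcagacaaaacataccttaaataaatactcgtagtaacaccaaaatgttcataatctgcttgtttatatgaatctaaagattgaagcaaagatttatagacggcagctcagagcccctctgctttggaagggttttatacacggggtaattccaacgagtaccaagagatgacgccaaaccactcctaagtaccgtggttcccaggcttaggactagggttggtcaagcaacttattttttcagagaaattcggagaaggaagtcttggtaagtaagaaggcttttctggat
Tlr1, start site A, chr5:64933509-64933808, minus strand: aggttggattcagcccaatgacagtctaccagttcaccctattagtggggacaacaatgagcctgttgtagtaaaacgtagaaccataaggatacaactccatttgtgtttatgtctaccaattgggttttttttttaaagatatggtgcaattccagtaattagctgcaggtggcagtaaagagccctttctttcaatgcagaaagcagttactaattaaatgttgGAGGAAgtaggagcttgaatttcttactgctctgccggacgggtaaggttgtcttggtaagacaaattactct
Tlr1, start site B, chr5:64932650-64932949, minus strand: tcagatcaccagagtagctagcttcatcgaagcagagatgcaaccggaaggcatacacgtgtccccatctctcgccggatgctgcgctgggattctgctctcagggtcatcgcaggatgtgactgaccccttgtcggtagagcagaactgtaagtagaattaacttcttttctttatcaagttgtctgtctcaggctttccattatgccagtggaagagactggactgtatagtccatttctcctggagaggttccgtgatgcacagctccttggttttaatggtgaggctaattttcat
Tlr8, chrX:167264280-167264579, minus strand: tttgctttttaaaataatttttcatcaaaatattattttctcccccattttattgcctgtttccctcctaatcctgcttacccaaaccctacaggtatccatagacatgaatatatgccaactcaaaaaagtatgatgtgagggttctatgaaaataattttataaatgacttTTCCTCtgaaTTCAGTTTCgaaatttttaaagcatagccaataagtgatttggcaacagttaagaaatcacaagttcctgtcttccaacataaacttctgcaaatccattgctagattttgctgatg
The Tlr2 promoter holds the kappaB consensus at -173 and -172, where the matches overlap, and again at -8 relative to the start site. The Tlr6 start site A promoter holds a pair of overlapping IRF matches on the opposite strand, at -115 and -109, and start site B holds no match to the 4 motifs. The Tlr1 start site A promoter holds the PU.1 core at -23, and start site B holds no match. The Tlr8 promoter holds the PU.1 core at -77 and IRF at -67, both on the opposite strand. Over all 9 promoters scanned, which belong to 7 members, 3 hold the PU.1 core, 1 holds AP-1, 2 hold IRF and 2 hold the kappaB consensus. Cd14 is not among these members. These are descriptions of letters in a window, and no binding was measured here.

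In the 9-month cre lungs 3 of the 10 genes rose against controls of the same age: Cd14 (2.22-fold), Tlr7 (2.84-fold) and Tlr6 (2.19-fold). None fell, with a count of 0 genes called lower, 5 of 10 reached an unadjusted p under 0.05 (27.3% of all genes did), and 8 of 10 fitted changes were positive (52.8% of all genes). Over all genes 3.65% were called higher and 2.81% lower in this comparison (limma, adjusted p under 0.05 over 16842 genes). The median log2 change of the 10 genes was 0.56 beside 0.02 over all genes. For 6 of 10 genes the 9-month cre and control arrays did not overlap, beside 32.5% of all genes. Tlr8 is in each of these counts except the calls, though it was well above background on 0 of 3 control arrays. It passed the filter on dim probes only through the 9-month cre group, so its part in the counts and the median is not support for a rise. Without Tlr8 the middle value of the other genes is that of Tlr4, 0.14. With slide as a block, or with sex as a covariate, 0 of 10 genes were called, as was the case for 0 of all genes.

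**Figure D1:**
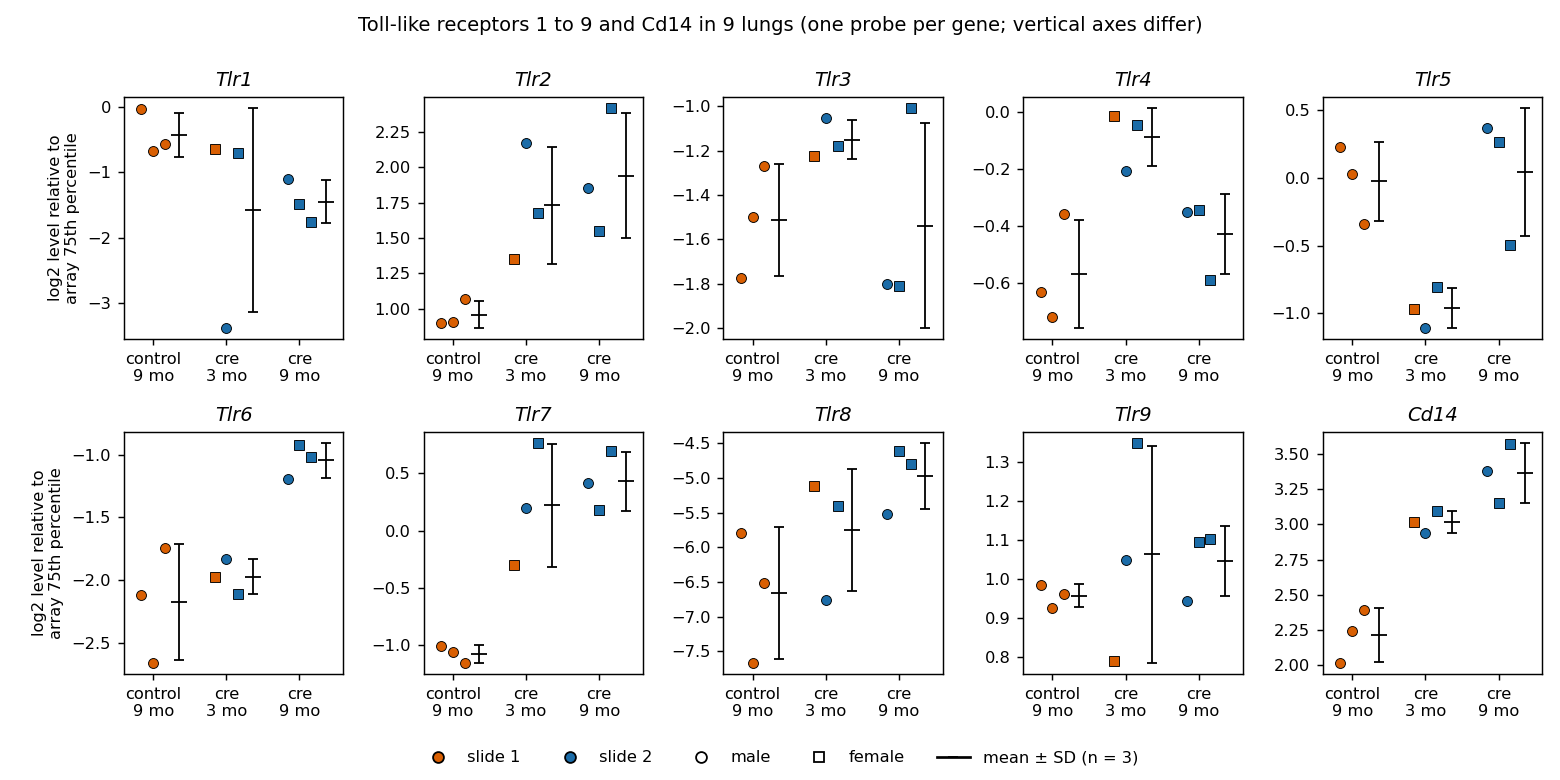
Log2 level relative to the 75th percentile of the array (vertical axis, a separate range in each panel) for the 10 genes in control, 3-month cre and 9-month cre lungs. Each point is 1 lung, colour gives the slide, shape gives the sex read from the array, and the bar is the mean ± SD of 3 lungs. The cre lungs lie above all control lungs for Cd14, Tlr2 and Tlr7, and only the 9-month cre lungs do so for Tlr6.

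The receptors of bacterial lipoproteins gave different patterns although they work together. TLR2 pairs with TLR1 for triacylated and with TLR6 for diacylated lipopeptides. Tlr2 (chromosome 3, 83836272 to 83841824, GRCm38) had levels of 0.90, 0.91 and 1.07 in control lungs, 1.35, 2.17 and 1.68 in 3-month cre lungs and 1.85, 1.55 and 2.42 in 9-month cre lungs. Every cre lung was above every control lung, the 2 cre groups overlapped, and the controls spread least. The 9-month difference was 0.98 ± 0.26 (log2, SE) with an adjusted p of 0.0588 in limma, and the 3-month difference was 0.77 ± 0.26 with an adjusted p of 0.179. Neither passed the threshold. With slide as a block the 9-month difference was 0.41. In the authors' deposited values, scaled differently, the 9-month difference of 0.96 did pass (adjusted p = 0.0493).

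Tlr6 (chromosome 5, 64953092 to 64970942) had levels of -2.12, -2.67 and -1.74 in control, -1.98, -1.84 and -2.11 in 3-month cre and -1.19, -0.92 and -1.02 in 9-month cre lungs. The 3-month cre lungs lay inside the range of the controls, and all 3 of the 9-month cre lungs lay above both groups. The 9-month rise over control was 1.13 ± 0.22 (limma, adjusted p = 0.0267), and the rise over the 3-month cre group was 0.93 ± 0.22 (limma, adjusted p = 0.0494). The first call was lost without control replicate 1, control replicate 2 or 9-month cre replicate 1 (adjusted p = 0.0606, 0.062 and 0.0651). The second was lost without any one of 7 arrays, with adjusted p between 0.0276 and 0.146 over all 9. With slide as a block the 9-month difference from control was 1.13 (adjusted p = 0.977), and with sex as a covariate it was 1.13 (adjusted p = 0.0955). The male 9-month cre lung, at -1.19, was above the highest of the male controls, at -1.74.

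Tlr1 lies 19.5 kb from Tlr6 on the same chromosome (64924680 to 64933600). Its levels were -0.03, -0.67 and -0.57 in control, -0.64, -3.38 and -0.70 in 3-month cre and -1.10, -1.49 and -1.75 in 9-month cre lungs. All 9-month cre lungs were below all controls, and replicate 2 of the 3-month cre group stood far below the other 8 lungs. The 9-month difference was -1.02 ± 0.66 (limma, adjusted p = 0.34), and the spread of the 3-month cre group enters this error because all groups share 1 fit. The further Tlr1 probe gave -0.61, -0.79 and -0.66 in control, -0.83, -3.49 and -2.10 in 3-month cre and -1.20, -1.51 and -1.84 in 9-month cre lungs, with the same replicate lowest. With slide as a block the 9-month difference of the main probe turned to 0.38. There the low replicate 2 of the 3-month cre group, which lay on slide 2, enters the slide term. Where on the transcript a probe lies is not stated in the sources used, so signal shared between the related Tlr1 and Tlr6 transcripts cannot be told apart.

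Of the genes of the lipopolysaccharide receptor, Cd14 rose at 9 months and Tlr4 did not pass the test. Cd14 (chromosome 18, 36725064 to 36726815) had levels of 2.01, 2.24 and 2.39 in control, 3.01, 2.94 and 3.10 in 3-month cre and 3.38, 3.15 and 3.57 in 9-month cre lungs. The 3 groups did not overlap, in the order control, 3-month cre, 9-month cre. In processed signal these are 4283 to 6056, 9738 to 10970 and 9945 to 12870 intensity units. The 9-month difference was 1.15 ± 0.14 (limma, adjusted p = 0.0106), and it passed the threshold without any single one of the 9 arrays, with adjusted p between 0.00764 and 0.0457.

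The 3-month Cd14 difference was 0.80 ± 0.14 with an adjusted p of 0.0682 in limma, and the difference between the cre groups was 0.35 ± 0.14 with an adjusted p of 0.155. The second Cd14 probe gave 1.49, 1.71 and 2.00 in control, 2.59, 2.75 and 2.46 in 3-month cre and 3.05, 2.84 and 3.41 in 9-month cre lungs, again with no overlap, and a 9-month difference of 1.37 ± 0.19 (limma over all probes, adjusted p = 0.0132). With slide as a block the 9-month difference of the main probe was 1.15 with an adjusted p of 0.936, and with sex as a covariate it was 1.12 with an adjusted p of 0.0603. Replicate 1 of the 3-month cre group, which shared its slide with the controls, had a Cd14 level of 3.01, above all 3 controls. The male cre lungs had levels of 2.94 and 3.38, also above all 3 controls.

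Tlr4 (chromosome 4, 66827551 to 66846581), which signals for lipopolysaccharide together with MD-2, had levels of -0.63, -0.72 and -0.36 in control, -0.01, -0.21 and -0.04 in 3-month cre and -0.35, -0.34 and -0.59 in 9-month cre lungs. Only the 3-month cre lungs lay above all controls, and the 9-month cre lungs overlapped the controls. The 9-month difference was 0.14 with a 95% interval of -0.16 to 0.44, and the 3-month difference was 0.48 ± 0.13 (limma, adjusted p = 0.131). The further Tlr4 probe was too dim to be kept. The MD-2 gene Ly96 gave a 9-month difference of -0.30 ± 0.25 and the gene of lipopolysaccharide-binding protein, Lbp, one of -0.05 ± 0.15 (limma, adjusted p = 0.466 and 0.854).

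Tlr5 (chromosome 1, 182954752 to 182976044), the receptor of flagellin, was lowest in the younger cre lungs. Its levels were 0.23, 0.03 and -0.34 in control, -0.97, -1.11 and -0.81 in 3-month cre and 0.37, 0.27 and -0.50 in 9-month cre lungs. The 3-month cre lungs lay below all other lungs, and the control and 9-month cre lungs overlapped. The 3-month difference from control was -0.93 ± 0.24 (limma, adjusted p = 0.124) and the difference between the cre groups was 1.00 ± 0.24 (limma, adjusted p = 0.0531). Neither passed, while the difference between the cre groups did pass with normexp background correction (adjusted p = 0.0446) and with the authors' deposited values (adjusted p = 0.0488). Age and tamoxifen exposure differ along with genotype in the first of these comparisons, and with each other in the second. In neither can their parts be told apart.

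Among the endosomal receptors Tlr7 rose at 9 months, and Tlr3, Tlr8 and Tlr9 were not called. Tlr7 (chromosome X, 167303380 to 167330574), which binds single-stranded RNA, had levels of -1.00, -1.06 and -1.16 in control, -0.30, 0.20 and 0.77 in 3-month cre and 0.42, 0.18 and 0.70 in 9-month cre lungs. All 6 cre lungs were above all controls, and the cre groups overlapped. The lowest cre lung was the one on the slide of the controls. The 9-month rise was 1.51 ± 0.25 (limma, adjusted p = 0.0199) and the 3-month difference 1.30 ± 0.25 (limma, adjusted p = 0.0788).

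A further Tlr7 probe gave -0.90, -0.90 and -0.76 in control, 0.23, 0.03 and 0.28 in 3-month cre and 0.25, -0.17 and 0.46 in 9-month cre lungs. There the group differences were 1.04 at both times, and both passed the threshold (limma over all probes, adjusted p = 0.0196 at 9 months and 0.0435 at 3 months). The third Tlr7 probe was not well above background on any of the 9 arrays and was left out. The 9-month call of the main probe was lost without control replicate 1, 2 or 3 (adjusted p = 0.0505, 0.0663 and 0.0579) and without 9-month cre replicate 1 (0.0592). With slide as a block the 9-month difference was 0.72 (adjusted p = 0.985), and with sex as a covariate it was 1.49 (adjusted p = 0.0815). Against the controls on the same slide, replicate 1 of the 3-month cre group was higher by 0.77.

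Tlr8 (chromosome X, 167241123 to 167264329) lies 39 kb from Tlr7 and also binds RNA. Its probe was dim, and it was well above background on 0 of 3 control arrays, 2 of 3 arrays of the 3-month cre group and 3 of 3 arrays of the 9-month cre group. Levels were -5.79, -7.67 and -6.52 in control, -5.11, -6.75 and -5.40 in 3-month cre and -5.51, -4.61 and -4.80 in 9-month cre lungs. The group mean of the 9-month cre lungs was at least 1.3-fold that of the controls, where dim signals were raised to the lowest signal called above background on that array. This bound is for the group means and not for single lungs, and it does not take in the spread between lungs. The fitted difference had an adjusted p of 0.1 in limma, and no fold is given at 3 months.

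Tlr3 (chromosome 8, 45395665 to 45411075), which binds double-stranded RNA, had levels of -1.77, -1.50 and -1.27 in control, -1.22, -1.05 and -1.18 in 3-month cre and -1.80, -1.81 and -1.01 in 9-month cre lungs. The 9-month cre lungs spanned the controls, and the 3-month cre lungs lay just above them. The probes disagreed at 3 months, with a difference of 0.36 ± 0.23 for the main probe and -0.56 ± 0.21 for the further one, so no direction is given. Tlr9 (chromosome 9, 106222598 to 106226876), which binds unmethylated CpG DNA, had levels of 0.98, 0.93 and 0.96 in control, 0.79, 1.05 and 1.35 in 3-month cre and 0.94, 1.10 and 1.10 in 9-month cre lungs. The groups overlapped, and the 95% interval of the 9-month difference was -0.24 to 0.42 on the log2 scale.

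**Figure D2:**
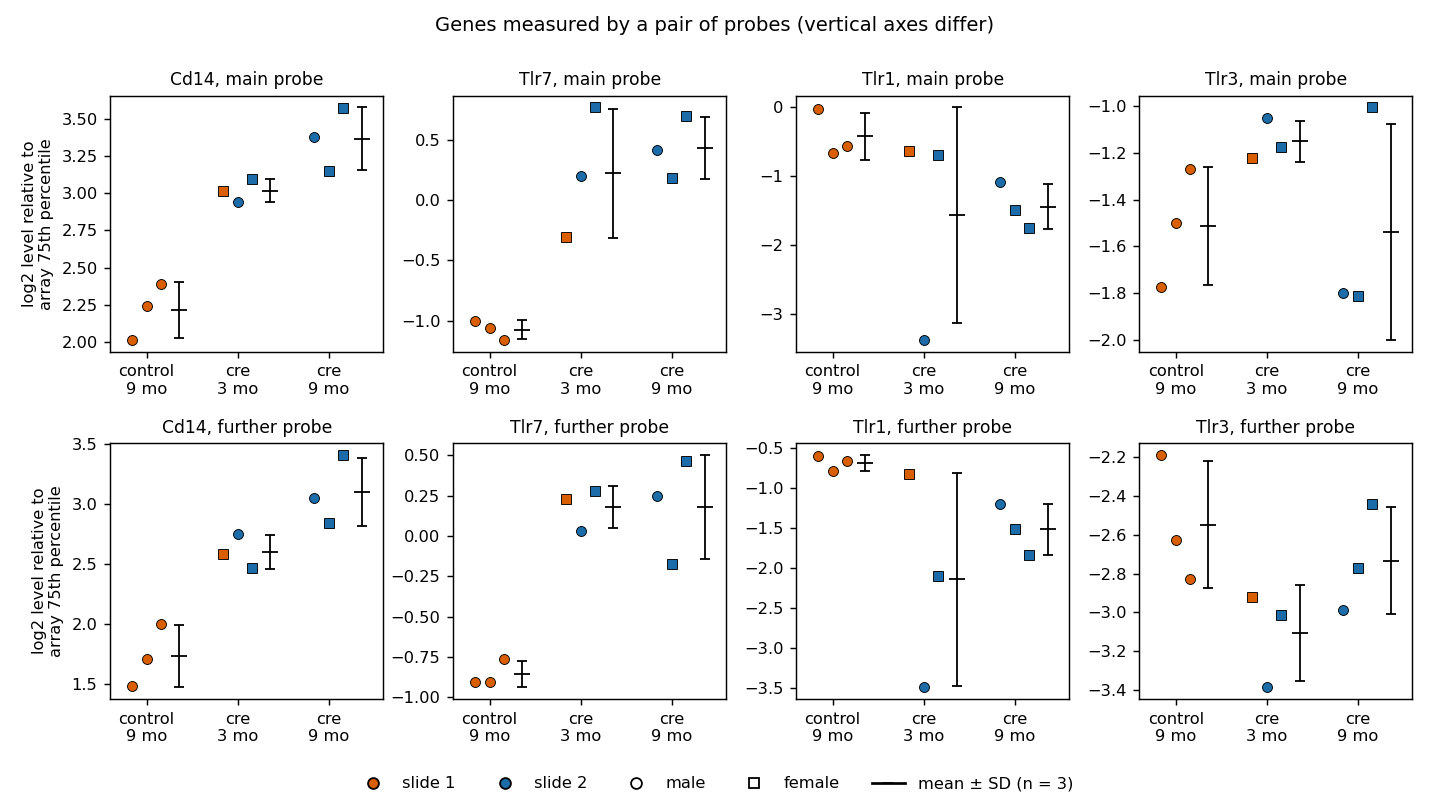
Log2 level relative to the 75th percentile of the array in 9 lungs for the 4 genes with a pair of probes above background, main probe in the upper row and further probe in the lower row. Points, colours, shapes and bars (mean ± SD of 3 lungs) are as in the plot of all 10 genes. Both probes of Cd14 and of Tlr7 put all cre lungs above all control lungs, while the 3-month cre lungs lay above the controls with one Tlr3 probe and below them with the other.

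At 3 months 0 of the 10 genes were called, where 0.368% of all genes were called higher and 0.0831% lower (limma, adjusted p under 0.05). At an unadjusted p under 0.05, which 18.7% of all genes reached, there were 5 of 10: Cd14, Tlr7, Tlr2 and Tlr4 with positive and Tlr5 with negative differences. The arrays did not overlap in 6 of 10 genes, beside 31.0% of all genes, and the median change was 0.42 beside 0.05 over all genes. This median includes the dim Tlr8, and without it the middle value is that of the main Tlr3 probe, 0.36. Both comparisons with control use the same 3 control lungs. Between the cre groups, Tlr6 was the 1 gene of 10 called, higher at 9 months, where 1.79% of all genes were called higher and 3.20% lower. The arrays of the cre groups did not overlap in 4 of 10 genes (Tlr4, Tlr5, Tlr6 and Cd14), beside 33.6% of all genes, and 4 of 10 had an unadjusted p under 0.05, beside 28.7% of all genes. Within slide 2 the Tlr6 difference between the cre groups was 0.93, and with slide as a block its adjusted p was 0.146.

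**Figure D3:**
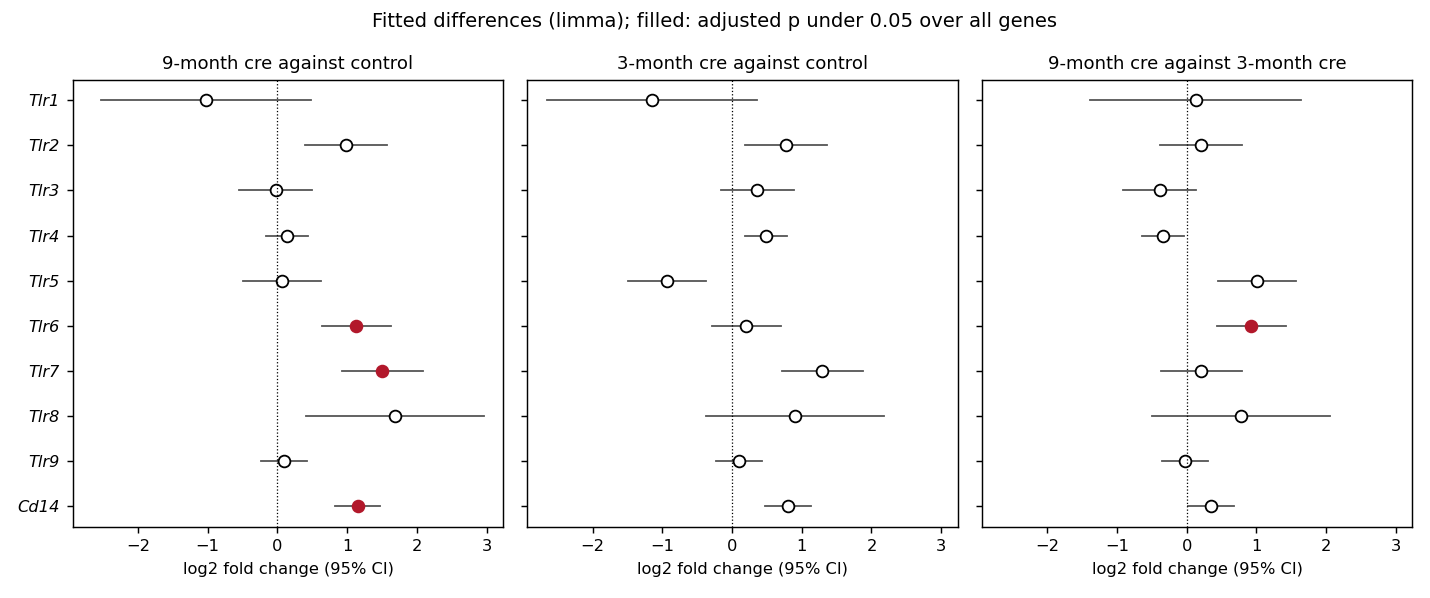
Fitted log2 fold change (horizontal axis) of the 10 genes in the 3 comparisons, with 95% intervals from limma. Filled points passed an adjusted p of 0.05 over all genes: Tlr6, Tlr7 and Cd14 at 9 months against control, none at 3 months, and Tlr6 between the cre groups.

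Of the mouse Toll-like receptors outside these 10 genes, Tlr13 was called in 2 comparisons. Tlr13 (chromosome X, 106143275 to 106160493) is an endosomal receptor of bacterial ribosomal RNA. Its levels were 1.37, 1.27 and 1.46 in control, 1.55, 1.95 and 1.91 in 3-month cre and 2.92, 2.67 and 3.02 in 9-month cre lungs, with no overlap between any groups. The 9-month rise over control was 1.50 ± 0.15 (limma, adjusted p = 0.00897) and that over the 3-month cre group 1.07 ± 0.15 (limma, adjusted p = 0.021). A further Tlr13 probe gave 1.73 ± 0.20 and 0.64 ± 0.20, and the second of these was not called (limma over all probes, adjusted p = 0.0103 and 0.0739). With slide as a block 0 genes were called in either comparison, so neither Tlr13 call was kept. With sex as a covariate 0 genes were called against control. Tlr11 and Tlr12, which bind profilin of protozoa, were not called, with 9-month differences of 0.47 ± 0.42 and -1.05 ± 0.41.

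Downstream and accessory genes were read from 8 lists at 9 months, and as for the members 0 of them were called against control with the slide block or the sex covariate. The 11 genes of receptor chaperones and endosomal processing had a median of 0.55, beside 0.02 over all genes. Beside 3.65% of all genes called higher and 2.81% lower, 0 of the 11 fell and 4 rose. These were the proteases Ctsk (1.87 ± 0.28), Ctss (1.21 ± 0.23), Ctsb (0.92 ± 0.19) and Lgmn (0.78 ± 0.18), lysosomal enzymes of which cathepsins and the asparagine endopeptidase encoded by Lgmn trim endosomal receptors. The adjusted p in limma ran from 0.0162 to 0.0428. Unc93b1, whose product carries endosomal receptors to their compartment, gave 0.55 ± 0.15 (limma, adjusted p = 0.0609). Ctsk also rose in the 3-month cre lungs, by 2.51 ± 0.28 (limma, adjusted p = 0.0208). It was the 1 gene of 11 called there, beside 0.368% of all genes called higher.

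At most 1 gene was called in each of the next 4 lists, beside 3.65% of all genes called higher, and nothing particular to these lists is read from the calls. Unadjusted p under 0.05 was reached by 11 of 25 kinases, ligases and transcription factors, 9 of 15 negative regulators and 2 of 8 accessory genes (27.3% of all genes). Differences were positive for 5 of 5 adaptors, 20 of 25 kinases, ligases and transcription factors, 13 of 15 negative regulators and 4 of 8 accessory genes (52.8% of all genes). Of 5 measured adaptors 0 were called (2 at an unadjusted p under 0.05), and Myd88, the adaptor of all Toll-like receptors but TLR3, had a 9-month difference of 0.50 ± 0.14 (limma, adjusted p = 0.0698). Of 25 kinases, ubiquitin ligases and transcription factors 1 rose, Irf7, a transcription factor of type I interferon genes, by 0.78 ± 0.16 (limma, adjusted p = 0.0332), and 0 fell. Of 15 negative regulators 1 rose, Nfkbia, the inhibitor of NF-kappaB, by 0.62 ± 0.14 (limma, adjusted p = 0.0422). The median log2 change was 0.29 for adaptors, 0.21 for kinases, ligases and transcription factors and 0.62 for negative regulators. Of 8 accessory and co-receptor genes 1 rose, the integrin chain Itgb2 (1.06 ± 0.25, limma, adjusted p = 0.0448), with a list median of 0.02.

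Inflammatory target genes had the highest list median of the 8, 1.96, beside 0.02 over all genes, and 4 of 18 measured genes rose. The median includes Il10 and Cxcl2, which were not well above background on any control array. They passed the filter on dim probes only through cre lungs, so their part in the median is not support for a rise. Over all genes 3.65% were called higher at 9 months and 0.368% at 3 months. The acute-phase gene Saa3 had levels of 0.55, 0.11 and -1.58 in control, 2.18, 2.43 and 1.86 in 3-month cre and 4.19, 2.70 and 5.45 in 9-month cre lungs, with no overlap between groups. Its 9-month rise was 4.42 ± 0.72 (limma, adjusted p = 0.0188). The itaconate-producing enzyme Acod1 rose by 3.85 ± 0.94, the neutrophil chemokine Cxcl1 by 2.24 ± 0.54 and the prostaglandin synthase Ptgs2 by 1.03 ± 0.22 (limma, adjusted p = 0.0494, 0.0479 and 0.0332). The list was uneven between lungs. Its summed linear level, weighted to bright genes, was 56, 28.68 and 117.6 in 9-month cre replicates 1, 2 and 3. The sums were 14.77 to 17.53 in control and 21.04 to 28.01 in 3-month cre lungs. Cxcl1 in 9-month cre replicate 2, at -0.653, was below 3-month cre replicate 3, at -0.335. Tnf (1.18 ± 0.29) and Il1b (2.34 ± 0.58) did not pass, with adjusted p of 0.0524 and 0.0525 in limma. Of 15 endogenous and lung ligands 1 rose, the antimicrobial peptide gene Camp, by 4.91 ± 0.79 (limma, adjusted p = 0.0182). The hyaluronan synthase Has3 was the 1 ligand gene called at 3 months (1.41 ± 0.16, limma, adjusted p = 0.0226), and it was lower at 9 than at 3 months by a log2 change of -0.96 ± 0.16 (limma, adjusted p = 0.0303). The leukocyte adhesion molecule Icam1 was also lower at 9 than at 3 months (-0.90 ± 0.18, limma, adjusted p = 0.0368).

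**Figure D4:**
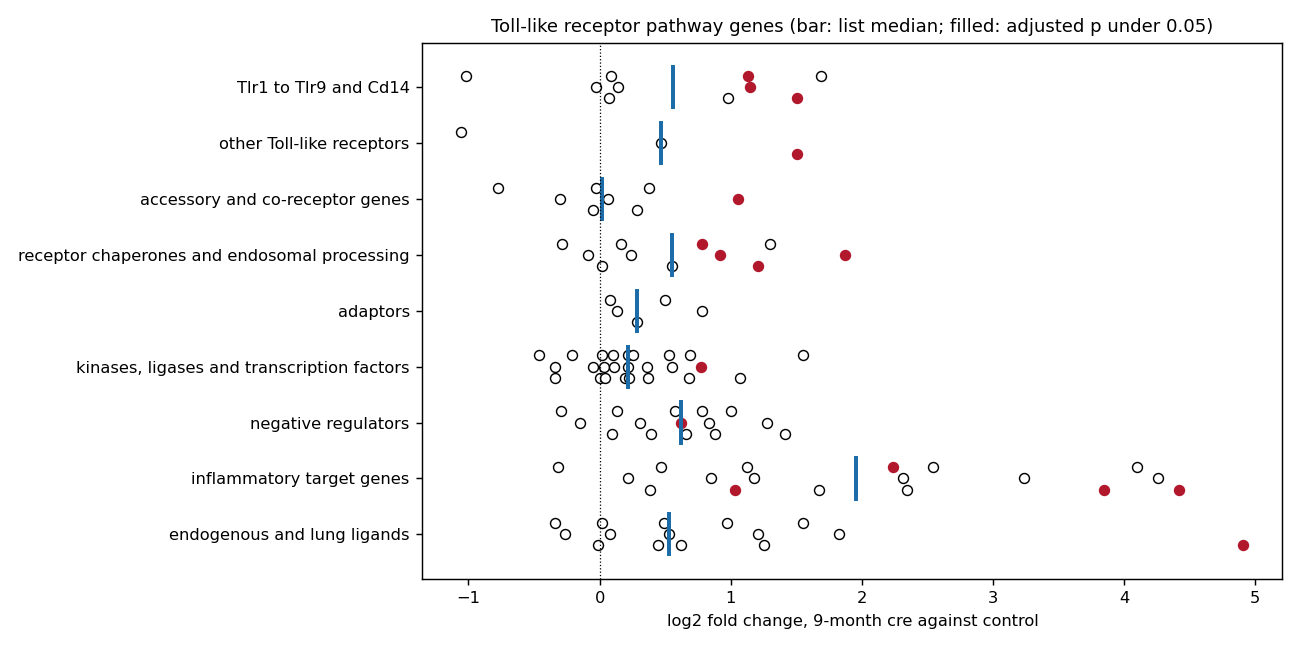
Log2 fold change in 9-month cre against control lungs (horizontal axis) for the 10 genes and for 8 lists of pathway genes. Each point is 1 gene, filled where the adjusted p in limma was under 0.05, and the bar is the list median, which ran from 0.02 for accessory genes to 1.96 for inflammatory target genes. Tlr8, Il10 and Cxcl2 are among the points though they were not well above background on any control array.

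Marker lists of other cell types are given beside these values. Over all genes 52.8% had positive differences from control at 9 months, 57.6% at 3 months, and 46.9% between the cre groups. In the same order 3.65%, 0.368% and 1.79% were called higher and 2.81%, 0.0831% and 3.20% lower. Of 15 monocyte and interstitial macrophage markers all 15 had positive 9-month differences and 3 rose, among them Ms4a7 (1.75 ± 0.42) and Cd68 (1.33 ± 0.24). Their summed linear level was 157.6 to 179.6 in control, 171.8 to 205.4 in 3-month cre and 250.3 to 281.4 in 9-month cre lungs. The 9-month cre lungs thus lay above the other groups, as they did for Tlr6, Cd14 and Tlr13. A linear sum gives most weight to bright genes, in this list Ly6c2. The 13 alveolar macrophage markers summed to 140 to 235.9, 334.4 to 375.8 and 222.7 to 362.5 in the same order, with all 3-month cre lungs above all controls. Of the 13, 12 had positive differences from control at 3 months and 9 at 9 months, and 1 was positive between the cre groups, where Car4 fell by 0.91 on the log2 scale (limma, adjusted p = 0.0402) while Tlr6 rose. Atp6v0d2 and Mrc1, the mannose receptor, were called in both comparisons with control, at 1.66 ± 0.22 and 1.19 ± 0.15 at 3 months and 1.15 ± 0.22 and 0.81 ± 0.15 at 9 months (limma, adjusted p between 0.0266 and 0.0302).

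Beside the counts that follow, 3.65% of all genes were called higher at 9 months, 2.81% were called lower and 52.8% had positive differences. Of 14 measured neutrophil markers 3 rose at 9 months, the granule genes Camp, Mpo (2.58 ± 0.44) and Ngp, whose group mean was at least 21.2-fold higher. The summed level of the list ran from 110.1 to 211.6 in control lungs. In the 9-month cre lungs the sum was 400.7 in replicate 1, 396.1 in replicate 2 and 128.2 in replicate 3, the last within the controls. A linear sum gives most weight to bright genes, here Csf3r and S100a9. In replicate 3 Camp, Ngp and Mpo (levels of -0.32, -2.86 and -2.99) were above all controls, while Ltf and Mmp9 (1.21 and -2.44) were below all controls. Of 9 dendritic cell markers 6 had positive differences and 1 rose, Flt3 (1.05 ± 0.13). The largest difference of that list was negative and not called, Cd209a at -1.40 ± 0.41 (limma, adjusted p = 0.0775), and the summed levels overlapped. Of 7 plasmacytoid dendritic cell markers 0 were called by limma (1 at an unadjusted p under 0.05) and 4 had positive differences, with a median of 0.03 beside 0.02 over all genes. Their sums were 73.8 to 97.9 in control and 129.7 to 138.9 in 9-month cre lungs, and Siglech differed by 1.20 ± 0.36 (limma, adjusted p = 0.0808) while Bst2, Ccr9 and Spib had negative differences. Of 8 B cell markers 1 fell, Fcer2a, by 1.62 on the log2 scale, and the sums were 19.5 to 25.5 in control and 10.5 to 15.9 in 9-month cre lungs. Of 12 endothelial and fibroblast markers 2 fell, Npnt (-1.23 ± 0.26) and Kdr (-0.96 ± 0.16). The pan-leukocyte gene Ptprc differed by 0.60 ± 0.18 at 9 months (limma, adjusted p = 0.0775). Fcnb and Blk were too dim to be kept and Ly6g was not matched to a probe. The part of these cell types in the receptor results was not tested.

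For the 3 members with the widest gap between group means, genes with the most similar pattern were listed by the root-mean-square difference of gene-centred log2 levels over the 9 arrays. For Tlr7 these were Dusp13 (0.145) and Fam167a (0.247), both well above background on all 9 arrays, and Spata31, which was not well above background in any control lung and gets no value. For Tlr8 no likeness is given for the same reason. For Tlr1 they were Olfr47 (0.494), Bmp2k (0.502) and Gm15348 (0.522), of which Olfr47 was above background on 8 of 9 arrays. Bmp2k had levels of 1.94, 1.90 and 1.89 in control, 1.47, -0.15 and 1.15 in 3-month cre and 0.21, 0.63 and 0.61 in 9-month cre lungs, with the same lowest lung as Tlr1. Gm15348 was also lowest in that lung, replicate 2 of the 3-month cre group.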

How the data were processed

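RNA of 9 whole lungs was hybridised to 1-colour Agilent arrays, 1 per mouse. Per the file headers, the authors' scanner files hold intensity per spot from Feature Extraction 10.7.3.1, with background subtracted within each array and no scaling between arrays. Here log2 processed intensity was set against each array's 75th percentile, control and irregular spots were left out, and spots of a probe were averaged. Probes were kept where all 3 arrays of any group were well above background (37646), and the brightest probe of a gene was used. Groups were fitted together in limma 3.58.1 (R 4.3.3) with 6 residual degrees of freedom, two-sided, with Benjamini-Hochberg adjustment over 16842 genes, and a gene is called at an adjusted p under 0.05. Symbols and positions came from RefSeq (GRCm38). The fit was tested on simulated data. The number of arrays, 3 a group, limits the precision.

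The members, lists and alternatives were chosen with earlier results of these data known. Every member was named, from each list up to 3 called genes with the largest change (or 1 uncalled gene as a value), and for likeness 3 genes for each of 3 members, left out for dim Tlr8. A few genes so chosen are not reported here. Lgmn, Ptgs2, Unc93b1, Myd88, Ly96, Lbp, Tnf, Il1b, Tlr11, Tlr12, Cd209a, Bst2, Ccr9, Spib, Sftpc and Ptprc were named beside these after their values were seen. Planned protein stretches were not used here. The deposited table holds scaled intensity of the same arrays and served as an alternative. Its columns have medians of 163.3 to 164.1 and follow the scanner's median signal (r of log2 values at least 0.9997). The sources used here do not give the scaling step. Same-numbered samples did not deviate together (r of -0.236 to 0.045), and numbers were not treated as pairs.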

Additional observations from a re-analysis of the deposited data

Results flagged for a closer look

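The change of Tlr6 differed between the collection times. Against the same 3 controls the log2 difference was 0.20 at 3 months and 1.13 at 9 months, and the difference between the cre groups, 0.929 ± 0.217 (SE), passed the test across all genes (limma, adjusted p = 0.0494). All 3 of the 9-month cre lungs lay above all 3 of the 3-month cre lungs. Age and tamoxifen exposure differ together between the cre groups, and their parts cannot be told apart. The call sits close to the threshold and was lost without control replicate 1 (adjusted p = 0.0683), without replicate 1, 2 or 3 of the 3-month cre group (0.146, 0.14 and 0.0987) and without replicate 1, 2 or 3 of the 9-month cre group (0.102, 0.0773 and 0.0673), and its size within slide 2 was 0.93.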

How the results depend on the processing

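The 9-month comparison called 3 members and 1087 genes, and it called 3 members with normexp, quantile normalization, median scaling, no filter, the filter on all arrays and the mean of probes, and 4 with the deposited values. The genes called were 489 without a filter, 185 with only the 2 groups in the fit, 317 with the replicate block and 0 with the slide block (837 at an unadjusted p under 0.05) or the sex covariate (3709), where 0 members were called. The deposited values split the calls into 554 higher and 651 lower, against 614 and 473. Leaving out 1 array gave 158 to 1638 genes and 1 to 4 members. The Tlr1 and Tlr9 changes turned to 0.378 and -0.319 with the slide block. Leaving out 1 array, Tlr3 ran from -0.291 to 0.111 and Tlr5 from -0.089 to 0.343.

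The 3-month comparison called 0 members and 76 genes. It called 49 genes and 1 member (Cd14) with normexp, 1 member (Tlr7) with median scaling or the mean of probes, 389 genes and 1 member (Cd14) with only the 2 groups, 43 genes with the deposited values, 14 without a filter, 45 with the filter on all arrays, 42 with the replicate block, and 0 with the slide block, within slide or with the sex covariate. Leaving out 1 array gave 1 to 322 genes and 0 to 2 members. The fitted value of the dim Tlr8 probe, which carries no direction, was -0.022 with normexp. Tlr9 turned to -0.166 with the slide block or within slide, and Tlr3 to -0.098 with the mean of probes and -0.558 with its further probe. Leaving out 1 array, Tlr6 ran from -0.042 to 0.42 and Tlr9 from -0.036 to 0.243.

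The comparison of the cre groups called 1 member and 840 genes. It called 2 members with normexp, the deposited values, the filter on all arrays and the mean of probes, and 0 with quantile normalization, median scaling (427 genes), no filter (104), the sex covariate (234), the replicate block (6), the slide block (0 genes) or within slide (0 genes). With only the 2 groups 335 genes were called. Leaving out 1 array gave 0 to 1224 genes and 0 to 2 members. Tlr7 turned to -0.052 with the slide block or within slide and to -0.001 with its further probe, Tlr3 to 0.373 with its further probe, and Tlr9 to 0.005 with quantile normalization and 0.014 with the deposited values. Leaving out 1 array, Tlr1 ran from -0.777 to 0.595, Tlr2 from -0.031 to 0.428, Tlr7 from -0.052 to 0.482 and Tlr9 from -0.153 to 0.126.

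The replicate numbers do not pair the samples. With the replicate block the 9-month Tlr6 change of 1.133 was not called (adjusted p = 0.067), nor that between the cre groups (0.0961), and it changed no other member's call. The comparison within slide was chosen after seeing the data. It gave the same values as the slide block, so they are not separate checks. No within-slide value exists for the 9-month cre lungs against controls, because no slide holds both. The causes of these shifts were not tested. Tlr8 was near background, which limits it to a bound.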
